A study of Mus musculus with 14 samples.

Results

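Imprinted growth genes are transcribed mainly from the maternal or the paternal copy, and 10 of them were followed here in fibroblasts of the mouse heart after myocardial infarction (MI). The 10 genes are Mir675 (a microRNA gene inside H19), Igf2, Dlk1, Meg3, Peg3, Mest, Plagl1, Cdkn1c, Ndn and Grb10. A gene counted as measured where the array's annotation gave its symbol, which held for 9 of the 10 among 19494 genes, and Meg3 was not analysed here. The genes were chosen by their log2 levels across the 5 groups, above all the Mir675 signal at 7 days, so their values are given as descriptions without a test. Tests are given only for other imprinted genes, for genes that act on imprints, on IGF2 or on H19, and for markers of cell types.

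At an imprinted gene the parental copies carry different DNA methylation, laid down in the germ line and copied at every cell division, and a control region silences one of them. Many imprinted genes act on growth before birth. Paternally expressed genes such as Igf2, Mest and Plagl1 tend to promote it, and maternally expressed genes such as H19, Cdkn1c and Grb10 tend to restrain it. Most are turned down in tissues after birth, and H19 is one of the most abundant transcripts of fetal tissue. The arrays read the sum of both copies and do not tell the maternal copy from the paternal one.

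All mice were adults of a C57BL/6 background that carried Tcf21-MerCreMer, a tamoxifen-dependent recombinase driven by the fibroblast gene Tcf21, and a Rosa26 EGFP reporter, and all received tamoxifen before surgery. The paper's name for the reporter line gives an FVB background. EGFP+ cells, which descend from cells with Tcf21-driven recombinase during the tamoxifen, were sorted from the left ventricle of uninjured hearts (3 arrays) or from the infarct area at 3 days (3 arrays), 7 days (3 arrays), 2 weeks (2 arrays) or 4 weeks (3 arrays) after ligation of the left coronary artery. RNA of the sorted pools was hybridized to Clariom S arrays. The deposited values are log2 signals, so a difference of 1 is a 2-fold change.

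A level of 5.89 served as background. Of 1412 smell and pheromone receptor genes, taken here as mostly silent in heart cells, 95% averaged less than this, and between 10744 and 11307 genes per array exceeded it. Arrays of a group correlated at 0.971 to 0.992. All 11 measured fibroblast markers exceeded background in every group, with Tcf21 at 13.18 ± 0.744 (SD, n = 3) in uninjured hearts. The 5 arrays numbered 1 form a set of their own, since any pair of them shared 481 to 808 identical values of 28846 against at most 2 for any other pair, and differences within that set and outside it are given where they part. Both 2-week arrays, 7-day array 2 and 4-week array 1 were low in the Y-linked genes Uty and Kdm5d. Uty read 4.31 and 4.18 on the 2-week arrays and 9.67, 9.58 and 9.04 on the uninjured ones. Every 2-week difference from uninjured hearts is thus also one between arrays low and not low in these genes, and its cause was not tested. In pooled cells a smaller share of cells that use a gene and less RNA per cell cannot be told apart.

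The Mir675 sequences are shown because this row of the array carried the highest and the most variable signal of the genes followed. RefSeq (build GRCm38.p6) places the hairpin on the minus strand at chr7:142577064-142577147, inside H19. The mature strands lie at chr7:142577112-142577133 for mmu-miR-675-5p and at chr7:142577078-142577099 for mmu-miR-675-3p. Each is 22 bases long and is printed 5′ to 3′ with its seed, bases 2 to 8, in capitals. In the hairpin of 84 bases the capitals mark the mature strands.
mmu-miR-675-5p: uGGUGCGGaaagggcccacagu
mmu-miR-675-3p: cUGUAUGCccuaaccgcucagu
Mir675 hairpin: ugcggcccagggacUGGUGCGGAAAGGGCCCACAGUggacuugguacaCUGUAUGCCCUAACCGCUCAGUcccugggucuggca
Neither seed is shared with any other of the 1738 mature miRNA entries of the table. The array row carries 2 RefSeq entries, of which 1 is that of Mir675 and 0 matched those of H19, and gives 1 signal per gene. It measures neither mature strand by itself, and whether its probes read H19 was not settled.

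Promoter windows, from 250 bases before to 50 bases after a transcript start, were read for 8 of the 10 genes, 15 windows in all. They were searched on both strands for TGCCGC, the letters that the imprint-protecting protein ZFP57 recognises when methylated. Of all 32851 mouse windows 11.6% hold it. Of the 15 windows 6 did, and 2 of these are overlapping windows of Mest. Windows of Mest, Plagl1 and Grb10 are shown because these were, with Mir675, the genes whose signal was higher than in uninjured hearts on every array of at least 1 time and lay farthest from it. Of their windows only those with a match are printed, 1 of the 2 overlapping ones of Mest among them. The other Mest window (chr6:30733256-30733555) and the other Grb10 window (chr11:12027922-12028221) hold 0 matches. Capitals mark the matches, all of which lie on the opposite strand and so read GCGGCA. The positions are chr6:30737800-30738099 (plus strand) for Mest, chr10:13090582-13090881 (plus strand) for Plagl1 and chr11:12037371-12037670 (minus strand) for Grb10.
Mest: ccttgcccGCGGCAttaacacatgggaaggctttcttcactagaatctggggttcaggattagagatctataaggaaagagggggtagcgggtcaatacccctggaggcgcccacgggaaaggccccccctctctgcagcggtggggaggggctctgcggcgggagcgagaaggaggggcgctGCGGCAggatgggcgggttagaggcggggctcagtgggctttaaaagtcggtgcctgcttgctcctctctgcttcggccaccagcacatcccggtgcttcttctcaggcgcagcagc
Plagl1: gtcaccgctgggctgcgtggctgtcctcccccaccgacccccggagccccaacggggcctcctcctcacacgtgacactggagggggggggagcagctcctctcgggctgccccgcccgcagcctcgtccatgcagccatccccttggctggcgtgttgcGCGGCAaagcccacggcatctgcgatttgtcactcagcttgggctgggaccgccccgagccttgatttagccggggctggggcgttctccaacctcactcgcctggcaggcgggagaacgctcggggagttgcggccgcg
Grb10: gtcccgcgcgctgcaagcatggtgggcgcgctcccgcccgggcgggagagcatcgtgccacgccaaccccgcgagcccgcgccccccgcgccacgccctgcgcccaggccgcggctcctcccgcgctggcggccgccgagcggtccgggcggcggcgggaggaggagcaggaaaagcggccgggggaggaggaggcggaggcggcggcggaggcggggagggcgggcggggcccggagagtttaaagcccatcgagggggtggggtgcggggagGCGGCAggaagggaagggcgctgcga
The printed Grb10 window holds 45 CpG dinucleotides, that of Plagl1 26 and that of Mest 17, whereas the Grb10 and Mest windows without a match hold 9 and 8, and the median over all windows is 7. A match is a description of these letters, and methylation was not measured on the arrays.

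The Mir675 row, whose hairpin lies inside H19, had the largest spread of group means of all 19494 genes, 9.95 on the log2 scale. It read 5.16, 6.27 and 5.96 on the uninjured arrays. Its level was 12.60, 12.34 and 11.90 at 3 days. It reached 15.42, 15.47 and 16.36 at 7 days. The signal was thus near background before injury and highest at 7 days, where no array came within the range of another group. At 2 weeks it read 11.96 and 11.69, and at 4 weeks 8.62, 6.89 and 7.72. Every MI array lay above every uninjured array, and the 4-week arrays were the nearest to them. The means were 5.80 ± 0.574, 12.28 ± 0.354, 15.75 ± 0.531 and 7.74 ± 0.866 (SD, n = 3) in uninjured hearts, after 3 and 7 days and after 4 weeks, and 11.83 ± 0.194 (SD, n = 2) at 2 weeks. From high to low the groups ran 7 days, 3 days, 2 weeks, 4 weeks and uninjured, and the arrays of 3 days and 2 weeks overlapped. Relative to uninjured hearts Mir675 was 89.3-fold higher at 3 days and 989-fold higher at 7 days. The folds of 2 and 4 weeks were 65.2 and 3.85. Uninjured array 1 lay below background, and with that array set to the background level the folds were 75.6, 836, 55.1 and 3.26 in order of time. A fold against so dim a group describes the array signal and is no ratio of transcripts. At 4 weeks the log2 difference was 3.46 within the arrays numbered 1 and 1.19 among the others.

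Igf2, the fetal growth factor that shares its enhancers with H19 and is expressed from the other parental copy, moved far less than Mir675. Its signal was 7.28, 8.92 and 9.07 in uninjured hearts. It read 7.06, 7.94 and 8.26 at 3 days and 9.21, 9.26 and 9.75 at 7 days. Later it was 7.45 and 8.34 at 2 weeks and 7.13, 7.93 and 7.75 at 4 weeks. Only the 7-day arrays all lay above the uninjured ones, and the other 4 groups overlapped one another. The 7-day mean was 9.41 ± 0.298 against 8.42 ± 0.996 in uninjured hearts (SD, n = 3 each), a log2 difference of 0.99 or 1.98-fold. Uninjured array 1 was the low one, so the difference at 7 days was 1.94 within the arrays numbered 1 and 0.51 among the others. At 2 weeks it was 0.18 within that set and -0.65 outside it.

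**Figure D1:**
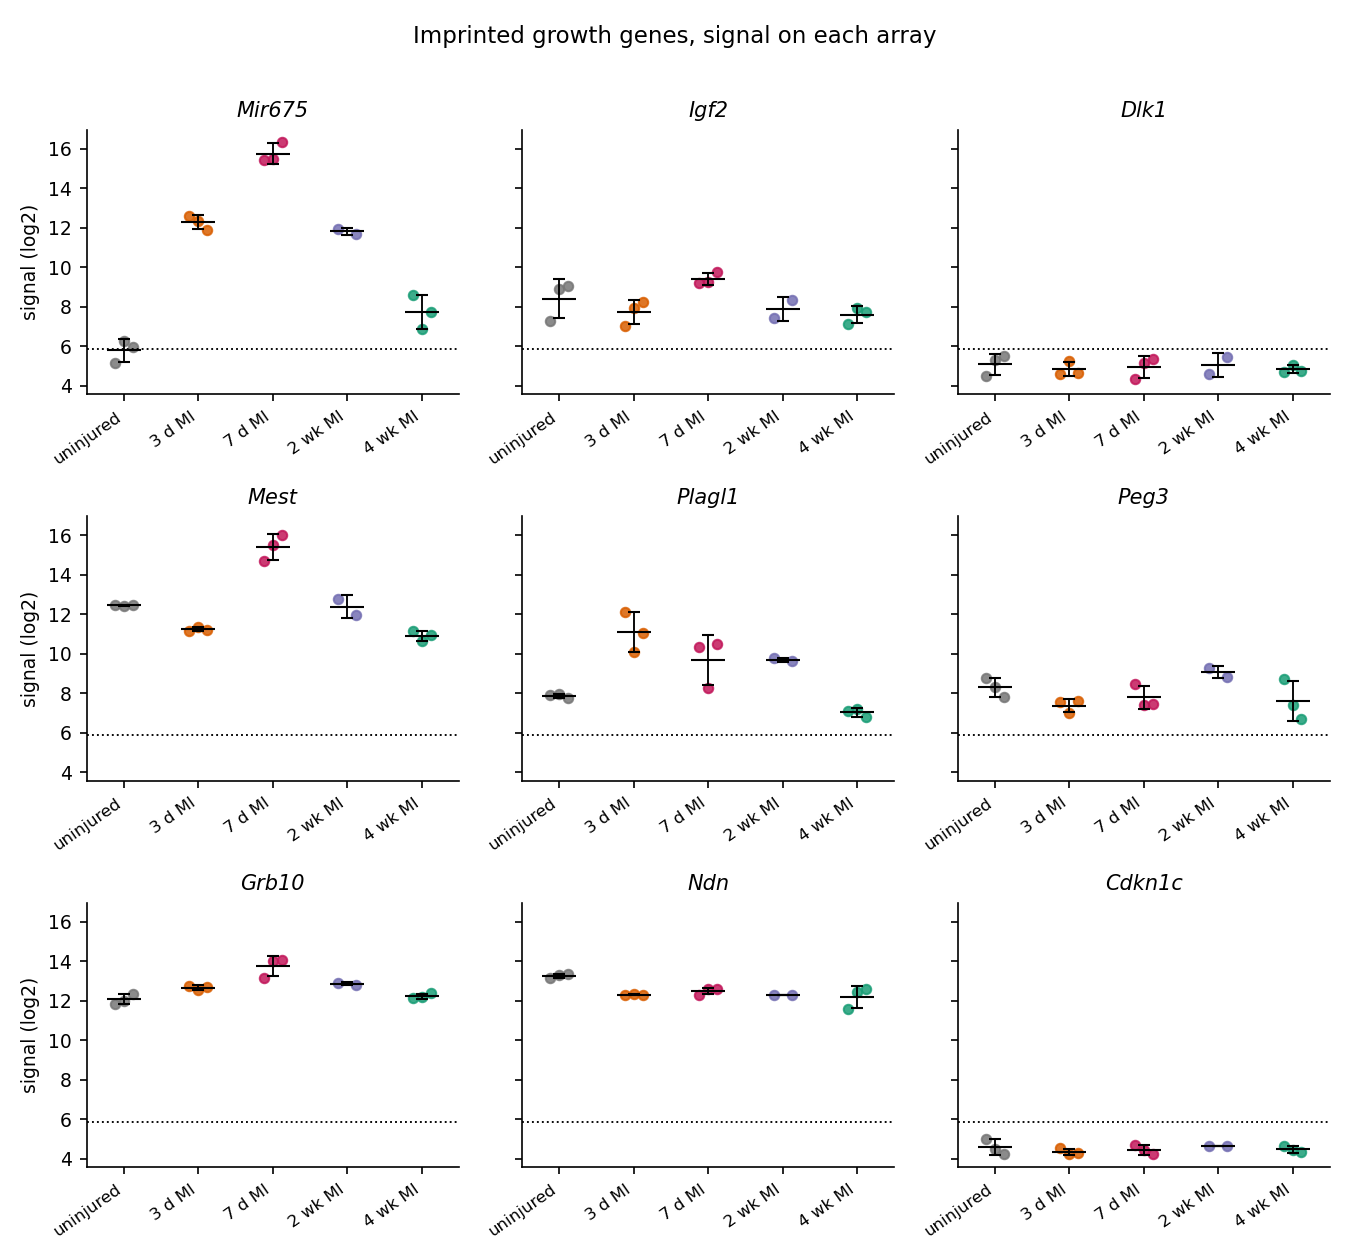
Log2 signal of the 9 measured imprinted growth genes on each array (points), with the group mean and SD (bars) and the background level of 5.89 (dotted line), from uninjured hearts to 4 weeks after MI. Mir675 lies between 5.16 and 6.27 in uninjured hearts and between 15.42 and 16.36 at 7 days, and Dlk1 and Cdkn1c lie below background throughout.

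Mest, a paternally expressed member of the hydrolase family linked to the growth of mesenchymal tissue, was lower at 3 days, higher at 7 days and lower again at 4 weeks than in uninjured hearts. The uninjured arrays read 12.45, 12.43 and 12.48. Those of 3 days read 11.16, 11.37 and 11.23, and those of 7 days 14.72, 15.49 and 16. The 3 uninjured arrays lay close together, and the groups of 3 and 7 days fell on opposite sides of them without overlap. Values at 2 weeks were 12.79 and 11.97, one on either side of the uninjured arrays. Those at 4 weeks were 11.14, 10.65 and 10.95, below both the uninjured and the 3-day arrays. Mest was 2.30-fold lower at 3 days, 7.74-fold higher at 7 days and 2.91-fold lower at 4 weeks than in uninjured hearts. Within the arrays numbered 1 the 7-day log2 difference was 2.27, and among the others it was 3.29. The 7-day level was 17.8-fold above that of 3 days, and the 4-week level 22.5-fold below that of 7 days.

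Plagl1, a zinc finger transcription factor that in mouse activates other imprinted genes, was highest at 3 days. It read 7.93, 7.95 and 7.75 in uninjured hearts. At 3 days it was 12.12, 10.10 and 11.04. At 7 days it was 10.36, 8.26 and 10.48. The arrays of these times differed widely among themselves, although all of them exceeded every uninjured array. Values of 9.78 and 9.62 at 2 weeks were also above, and those of 7.13, 7.23 and 6.79 at 4 weeks were below every uninjured array. The log2 differences from uninjured hearts were 3.21 and 1.82 after 3 and 7 days, or 9.25- and 3.53-fold higher. After 2 and 4 weeks they were 1.82 and -0.83, or 3.54-fold higher and 1.78-fold lower. Array 2 of 7 days was the low one, and without it the 7-day difference was 2.54. With a block for the 4 arrays low in the Y-linked genes Uty and Kdm5d, among them both of 2 weeks, the 2-week difference was 2.85.

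Peg3, a paternally expressed zinc finger protein, was the only one of the 7 genes above background with its highest mean at 2 weeks. Its signal was 8.77, 8.31 and 7.83 in uninjured hearts. It was 7.55, 7.00 and 7.59 at 3 days and 9.29 and 8.85 at 2 weeks. The 3-day arrays lay below and the 2-week arrays above the uninjured ones. At 7 days it read 8.48, 7.42 and 7.47, and at 4 weeks 8.71, 7.41 and 6.72. These last groups overlapped the uninjured arrays, and in both of them array 1 was the highest. Peg3 was 1.90-fold lower at 3 days and 1.70-fold higher at 2 weeks than in uninjured hearts, where both 2-week arrays were also the ones low in Uty and Kdm5d. The 4-week log2 difference was -0.06 within the arrays numbered 1 and -1.0 among the others.

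Grb10, a maternally expressed adaptor that binds the insulin and IGF1 receptors and dampens their signal, was highest at 7 days. Its arrays read 11.86, 12 and 12.34 in uninjured hearts and 12.77, 12.55 and 12.68 at 3 days. At 7 days they read 13.17, 14.03 and 14.08, above every array of the other groups. The 2-week arrays at 12.91 and 12.82 exceeded those of 3 days, and the 4-week arrays at 12.15, 12.17 and 12.39 overlapped the uninjured ones. The level was 1.51-fold higher at 3 days, 3.23-fold at 7 days and 1.74-fold at 2 weeks than in uninjured hearts. At 7 days array 1 was the lowest, and the log2 difference was 1.31 within the arrays numbered 1 and 1.88 among the others.

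Ndn, which encodes the growth suppressor necdin of the MAGE family, was lower than in uninjured hearts at all 4 times. The uninjured arrays read 13.14, 13.30 and 13.34. At 3 days Ndn read 12.29, 12.32 and 12.28, and at 7 days 12.29, 12.59 and 12.58. Later it read 12.29 and 12.28 at 2 weeks and 11.58, 12.44 and 12.59 at 4 weeks. No MI array reached the lowest uninjured one, and the 4 MI groups overlapped one another in order of their means. The gene was 1.95- and 1.71-fold lower after 3 and 7 days and 1.96- and 2.09-fold lower after 2 and 4 weeks. The value of 12.29 stands on the arrays numbered 1 of 3 days, 7 days and 2 weeks, which belong to the set with identical values. With the block for the arrays low in Uty and Kdm5d the 2-week log2 difference was -0.58, against -0.97 without it. At 4 weeks the log2 difference was -1.57 within the arrays numbered 1 and -0.81 among the others.

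Dlk1, a membrane protein with EGF repeats found in fetal mesenchyme, stayed below background on all 14 arrays, at 4.34 to 5.51. Cdkn1c, the cyclin-dependent kinase inhibitor p57, did so as well, at 4.22 to 5.02. For neither is a fold given. Both have only an upper bound here, which is not the same as an absence of transcript.

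**Figure D2:**
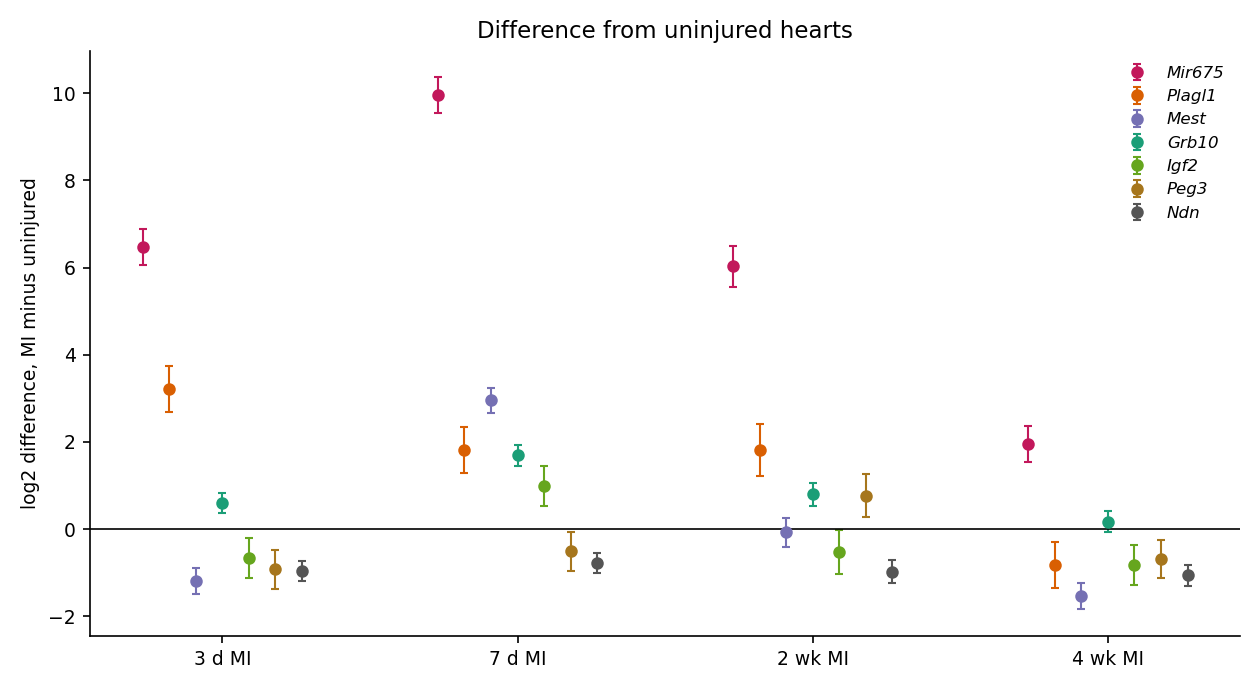
Log2 difference of each MI time from uninjured hearts for the 7 genes above background (points), with the standard error of the limma fit (bars). Mir675 lies 6.48, 9.95, 6.03 and 1.95 above uninjured hearts in order of time, Ndn lies below 0 at every time, and Mest, Plagl1, Igf2 and Peg3 lie on both sides of 0.

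The number of the 9 genes that pass limma's threshold, an adjusted p under 0.05 over all 19494 genes, is given as a description, since these contrasts entered their choice. At 3 days 4 passed beside 12.5% of all genes, with Mir675 and Plagl1 higher (6.74% of all genes were called higher) and Mest and Ndn lower (5.81% were called lower). At 7 days 3 passed beside 8.11% of all genes (4.62% higher, 3.49% lower), Mir675, Mest and Grb10, all higher, and 6 passed with the array number as a blocking factor. At 2 weeks Mir675 passed as higher, 1 gene beside 2.48% (1.3% higher, 1.18% lower), and 2 passed with the block, with 7-day array 2 left out or with 4-week array 1 left out. At 4 weeks 3 passed beside 1.91%, Mir675 as higher (0.995% of all genes) and Mest and Ndn as lower (0.913%). The 4-week count was 0 without uninjured array 3, and 1 without uninjured array 1, uninjured array 2, 4-week array 1 or 4-week array 2. Arrays did not overlap those of uninjured hearts for 6 of the 9 genes at 3 days (25% of all genes) and 6 at 7 days (19.8%), and for 5 and 4 of them after 2 and 4 weeks (24.8% and 12.3%). The median log2 difference of the 9 genes was -0.25, 0.99, 0.07 and -0.69 at these times, and that of all genes lay between -0.02 and 0.02. The middle gene was Dlk1 at 3 days and Cdkn1c at 2 weeks. Both lay below background, so the medians of those times describe no shift of the genes.

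Markers of macrophages moved with the 7-day values. The 11 measured markers (of 12 listed) had a summed signal of 15.62, 13.22 and 14.94 on the log2 scale at 7 days, against 9.19, 9.66 and 9.70 in uninjured hearts, and 9 of them passed the test at 7 days. Lyz2, C1qa and Laptm5 rose 133-, 87.8- and 52.5-fold, and C1qb, C1qc, Csf1r, Adgre1 and Cx3cr1 lay below background in uninjured hearts. The sum was 9.76 to 11.6 on the 3-day arrays, and 10.1 to 10.8 and 9.31 to 10.1 on those of 2 and 4 weeks. Among the 7-day arrays array 1, of the set with identical values, had the highest sum and the lowest Mir675, Mest and Grb10. Array 2 had the lowest sum and the middle value of each of these genes, and array 3 had the middle sum and their highest values. Array 3 thus exceeded array 2 both in the sum and in these genes, and array 1 departed from that order. The order of 3 arrays cannot decide the part of macrophages in the 7-day values, which was not tested. Endothelial markers summed to 10.7 to 12.1 at 7 days and to 9.34 to 10.2 at 3 days, against 12.3 to 12.6 in uninjured hearts. At 2 weeks they summed to 9.66 to 12.99. Markers of pericytes and smooth muscle summed to 11.48 to 12.53 at 7 days and to 10.46 to 10.90 at 3 days, against 10.67 to 11.70 in uninjured hearts. Of these, Cspg4 rose 9.15-fold at 7 days (limma adjusted p = 0.000135) and Abcc9 fell 3.39-fold (0.0245). Cardiomyocyte markers summed to 9.78 to 10.96 at 7 days and to 9.61 to 9.71 at 3 days, against 10.5 to 13.2 in uninjured hearts.

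**Figure D3:**
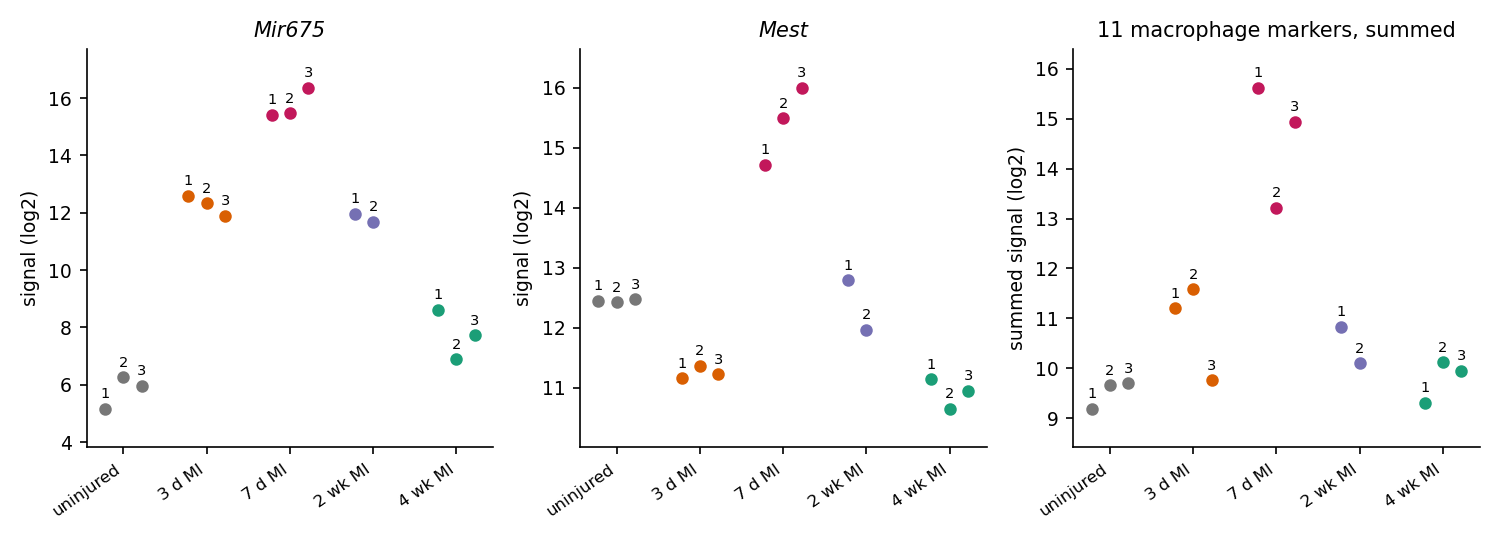
Log2 signal of Mir675 and Mest and the log2 summed signal of 11 macrophage markers on each array, with the array number above each point, and the vertical scale differs between panels. All 3 measures are highest at 7 days. There array 1 has the highest marker sum, 15.62, and the lowest Mest, 14.72, and array 2 has the lowest sum, 13.2, and the middle Mest, 15.49. Array 3 has the middle sum and the highest Mest, 16.

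The genes whose profile over the 14 arrays was most like that of Mir675 were sought among 11959 others above background in at least 1 group mean, by Pearson's r, as a description. They were Kif26b, an atypical kinesin (r = 0.978), P4ha3, a subunit of the collagen prolyl hydroxylase (0.977), the hyaluronan-binding protein Cemip (0.974), the fibrillar collagen chain Col5a2 (0.969) and the cadherin Cdh3 (0.962). Group means of Kif26b were 5.12, 10.32, 11.34, 8.86 and 6.87 from uninjured hearts to 4 weeks, the same order as for Mir675. Grb10 ranked 32 in likeness to Mir675 (r = 0.901), Plagl1 520, Mest 811 and Igf2 2129. Peg3 ranked 7189 (r = -0.113) and Ndn 10197 (r = -0.460). For Mest the nearest genes were Amacr, an enzyme of branched fatty acid oxidation (r = 0.933), the fractalkine receptor Cx3cr1 (0.916), the secreted C1q family protein C1qtnf3 (0.901), the leukocyte gene Lst1 (0.897) and Sh2d1b1, an adaptor of lymphoid cells (0.883). Cx3cr1 is one of the macrophage markers above, and Grb10 ranked 49 (r = 0.805). For Plagl1 they were the copper transporter Slc31a1 (r = 0.929), the Golgi protein Yipf5 (0.919), Ubfd1 (0.917), the nucleotide kinase Cmpk1 (0.916) and the zinc transporter Slc39a6 (0.914), and their highest means were those of 3 days. All arrays and their 5 groups are shared by these profiles, so r follows largely from a common order of group means.

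Other imprinted genes were tested to see which moved beside these. Of 97 listed entries 64 genes outside the 10 were measured, and 24 of these lay below background in every group mean. At 3 days 5 rose and 7 fell (18.8%, beside 12.5% of all genes). At 7 days 0 rose and 3 fell (4.69%, beside 8.11% of all genes), with 18 at an unadjusted p under 0.05. At 2 weeks 0 passed by limma, beside 2.48% of all genes, with 9 at an unadjusted p under 0.05 and 0 in contrasts without moderation of the variance after adjustment. At 4 weeks 1 fell (1.56%, beside 1.91% of all genes). With the array number as a block 7 passed at 7 days, 1 at 2 weeks (Pon2, -1.05, adjusted p = 0.0416) and 2 at 4 weeks (Tfpi2 added, -1.13, adjusted p = 0.0359). Those added at 7 days included Sgce, Trpm5 and Dio3. The 7-day count was 0 without 7-day array 3, 1 without 7-day array 2 or uninjured array 3, and 5 without 7-day array 1. At 2 weeks it was 1 without uninjured array 1 or 7-day array 3, and at 4 weeks 2 without uninjured array 1. Several of these genes are known to be imprinted only in placenta or brain. The arrays' p-values measure the spread between these samples, which the labels call biological replicates without naming animals.

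Slc38a4, a paternally expressed amino acid transporter, had the largest differences from uninjured hearts among the 64, in both directions. It read 7.53, 9.38 and 8.65 in uninjured hearts. At 3 days it was 12.32, 12.33 and 11.02, and at 7 days 9.65, 9.28 and 9.94. At 2 weeks it read 7.85 and 7.15, and at 4 weeks 5.58, 5.54 and 5.57. It was thus clearly above the uninjured arrays at 3 days and below background on every 4-week array. Slc38a4 rose 10.3-fold at 3 days (log2 3.37 ± 0.433 SE, limma adjusted p = 0.000144) and was at least 6.21-fold lower at 4 weeks (measured log2 difference -2.96, limma adjusted p = 0.00181). Without the arrays numbered 1 the 3-day difference was 2.66 (adjusted p = 0.00147). At 4 weeks it was at least 64.1-fold lower than at 3 days (measured log2 difference -6.33, limma adjusted p = 9.59e-07).

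In the domain of H19, Igf2 and Cdkn1c on chromosome 7, 15 of the 16 listed neighbours were measured. At 3 days Tnfrsf23, a decoy receptor of the TNF family, rose 3.57-fold (9.84, 8.93 and 9.83, against 8.27, 7.93 and 6.88 in uninjured hearts, limma adjusted p = 0.00268). Dhcr7, the last enzyme of cholesterol synthesis, rose 1.78-fold (limma adjusted p = 0.0297), a call that ended without any 1 array of either group (0.0564 to 0.102). The tetraspanin Cd81 fell 1.87-fold (limma adjusted p = 0.0154), and this call ended without uninjured array 2 (0.0745), uninjured array 3 (0.0626) or 3-day array 1 (0.0735). Trpm5, a cation channel, read 4.19, 4.12 and 4.36 at 3 days, all below background, against 6.91, 5.20 and 5.71 in uninjured hearts. It was called lower (limma adjusted p = 0.00987). Only uninjured array 1 exceeded background, so the bound of at least 1.04-fold rests on that array. At 7 days 0 of the 15 passed, beside 8.11% of all genes, and 5 of the 15 lay below background in every group mean. At that time 2 had an unadjusted p under 0.05 by limma, and Trpm5 passed with the replicate block (-1.02, adjusted p = 0.0291). Ins2, Th, Ascl2, Kcnq1 and Phlda2 were below background on all 14 arrays. Tspan32 (group means 5.73 to 6.20), Slc22a18 (5.89 to 6.40) and the antisense transcript Kcnq1ot1 (5.98 to 7.48) lay near it. Tssc4, Nap1l4 and Osbpl5 lay above it, with differences from uninjured hearts of -0.45 to -0.13, -0.17 to 0.34 and -0.27 to -0.09.

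Of the 12 imprinted genes listed for chromosome 6, which holds Mest and Peg10, 11 were measured, and those that passed against uninjured hearts fell. The list covers the chromosome, and a place on it does not make a gene a neighbour of Mest. Pon2, a paraoxonase, read 12.12, 12.31 and 12.06 at 3 days and 13.01, 12.46 and 11.76 at 7 days, against 13.55, 13.35 and 13.54 in uninjured hearts. It fell 2.49-fold at 3 days (limma adjusted p = 0.00365) and 2.10-fold at 7 days (0.0204). The 7-day call ended without uninjured array 1 (0.0550) or 3 (0.0671) or 7-day array 2 (0.0547) or 3 (0.0827). Sgce, a sarcoglycan expressed from the paternal copy, fell 2.49-fold at 3 days (limma adjusted p = 0.0134, and 0.0605 without 3-day array 2), and with the replicate block also at 7 days (-0.88, adjusted p = 0.00311). Peg10, a gene of retrotransposon origin needed for the placenta, fell at 7 days, to 7.64, 7.46 and 7.67 against 9.46, 8.47 and 8.41 in uninjured hearts (2.29-fold, limma adjusted p = 0.0223). That call ended without uninjured array 1 (0.0735), 7-day array 2 (0.0825) or 7-day array 3 (0.0588). Copg2, which lies next to Mest and overlaps its end, did not pass at any time against uninjured hearts, with differences of -0.45, 0.44, 0.10 and 0.45. Pon3, Asb4 and Tfpi2 had differences of -0.82 to -0.38, -1.42 to -0.36 and -1.13 to 0.09 without passing. Without the arrays numbered 1, Asb4 passed as lower at 3 days (-1.16, limma adjusted p = 0.0406), 7 days (-1.63, 0.0111) and 4 weeks (-1.96, 0.0141). Klf14, Ppp1r9a and Calcr were below background on all arrays, and Nap1l5 on 12 of 14.

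**Figure D4:**
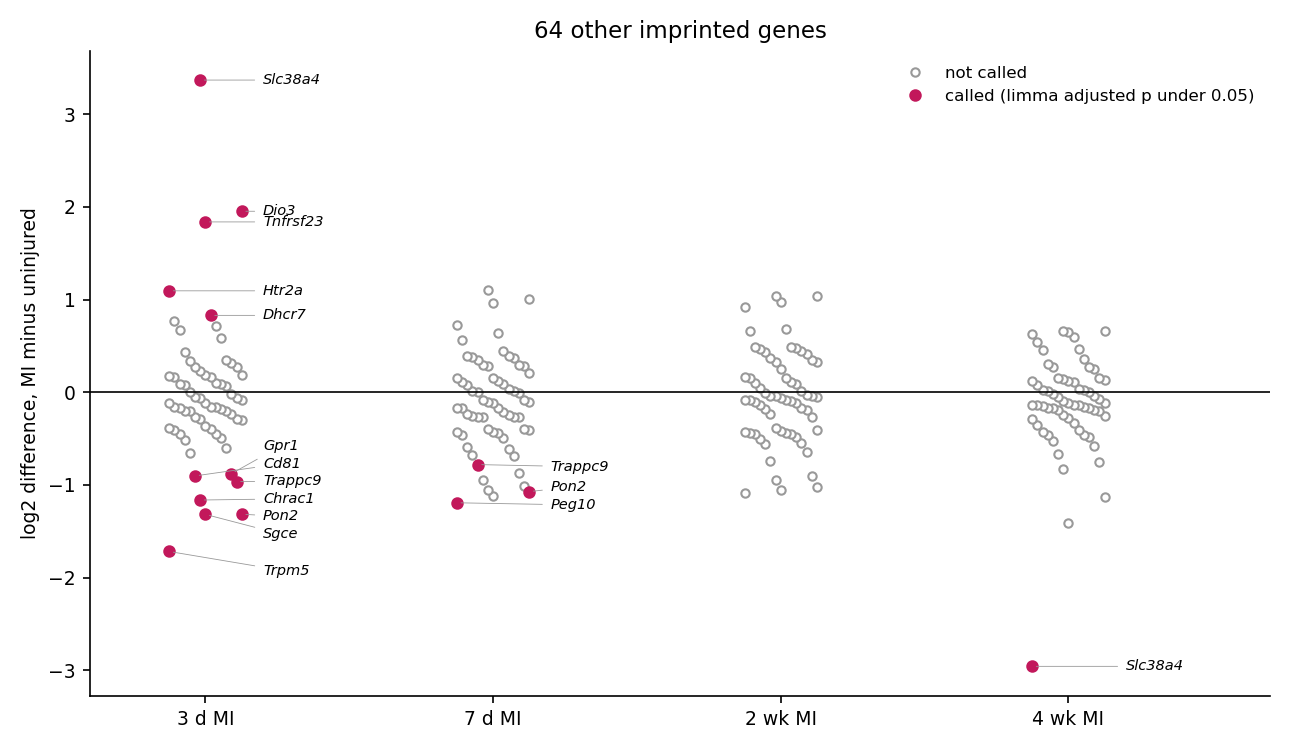
Log2 difference from uninjured hearts of 64 imprinted genes outside the 10, at each time after MI, where each point is 1 gene and filled points passed limma's threshold. The 3-day column holds 12 filled points, Slc38a4 is the highest of them at 3.37, and it is the only filled point at 4 weeks, at -2.96.

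The remaining listed imprinted genes showed few changes. On chromosome 12, beside Dlk1 and Meg3, Dio3, which inactivates thyroid hormone, read 5.65, 5.41 and 6.31 at 3 days against 3.76, 3.79 and 3.96 in uninjured hearts (limma adjusted p = 0.000474), and 1 of those 6 arrays exceeded background, so no fold is given. With the array number as a block Dio3 also passed at 7 days (adjusted p = 0.0378), where all arrays of both groups lay below background, so no size is given. Begain had group means of 5.59 to 6.23. Beside Peg3, Usp29 and Zim1 were below background on all arrays. Beside Ndn the same held for Magel2 and Mkrn3, Peg12 had group means of 5.32 to 5.71, and Ube3a and Atp10a had differences of -0.24 to 0.77 and 0.56 to 0.97 without passing. At 3 days Atp10a passed with the array number as a block (0.67, adjusted p = 0.0464) and Ube3a without the arrays numbered 1 (1.13, adjusted p = 0.0113). On the chromosome of Grb10, Ddc (-0.38 to -0.06), Cobl (-0.29 to 0.16) and Commd1 (-0.48 to 0.19) did not pass. Nor did Dcn (-0.46 to -0.01) and Phactr2 (-0.61 to 0.44) on the chromosome of Plagl1. Elsewhere in the genome Htr2a, a serotonin receptor, rose 2.13-fold at 3 days (limma adjusted p = 0.00702). Chrac1, a histone-fold protein, fell 2.24-fold (0.00476), and its neighbour Trappc9 fell 1.95-fold at 3 days (0.00872) and 1.72-fold at 7 days (0.0417). The 7-day call of Trappc9 ended in most refits, among them those without uninjured array 2 (0.191) or 3 (0.110) or 7-day array 1 (0.119) or 3 (0.161). Gpr1 was called lower at 3 days (limma adjusted p = 0.014), a call that ended without uninjured array 3 (0.0623) or 3-day array 1 (0.0637), and with 1 of its 14 arrays above background no fold is given.

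Of 15 genes that set, copy or protect imprints, all of them measured, 3 rose at 3 days (20%, beside 12.5% of all genes), and at 7 days 2 rose and 1 fell (20%, beside 8.11% of all genes). Uhrf1, which brings the maintenance methyltransferase to newly copied DNA, read 12.42, 12.37 and 11.34 at 3 days and 9.37, 10.21 and 9.63 at 7 days, against 7.57, 6.62 and 7.60 in uninjured hearts. It rose 27.5-fold at 3 days (limma adjusted p = 1.69e-06) and 5.55-fold at 7 days (0.000554). Dnmt1, that methyltransferase, read 9.02, 8.83 and 8.51 at 3 days against 6.56, 6.85 and 6.66 in uninjured hearts and rose 4.26-fold (0.000134). Both genes are also used by dividing cells. Zfp57, which binds the methylated motif shown above, read 6.33, 6.66 and 7.37 at 3 days and 7.09, 6.45 and 6.27 at 7 days, against 5.26, 4.96 and 4.51 in uninjured hearts, all below background. It was at least 1.86-fold higher at 3 days (measured log2 difference 1.88, limma adjusted p = 0.00144) and at least 1.64-fold higher at 7 days (1.69, adjusted p = 0.00452), and its 2-week difference of 1.46 had an adjusted p of 0.0546. Dnmt3l, a cofactor of the germ-line methyltransferases, was at least 1.5-fold lower at 7 days (-1.20, limma adjusted p = 0.0193) and at 2 weeks (-1.58, adjusted p = 0.0181). Its 7-day call ended without uninjured array 2 (0.0665), uninjured array 3 (0.057), 7-day array 1 (0.0664) or 7-day array 3 (0.0663). Its 2-week call ended without uninjured array 2 (0.0642), uninjured array 3 (0.0578), 2-week array 1 (0.209) or 2-week array 2 (0.107). At 4 weeks 0 of the 15 passed, beside 1.91% of all genes, with 1 at an unadjusted p under 0.05 by limma. The insulator protein Ctcf, which separates Igf2 from its enhancers on the maternal copy, had differences of 0.27 to 0.46 with adjusted p of 0.616 to 0.979. Dnmt3b, Ctcfl and Dppa3 were below background on all arrays.

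**Figure D5:**
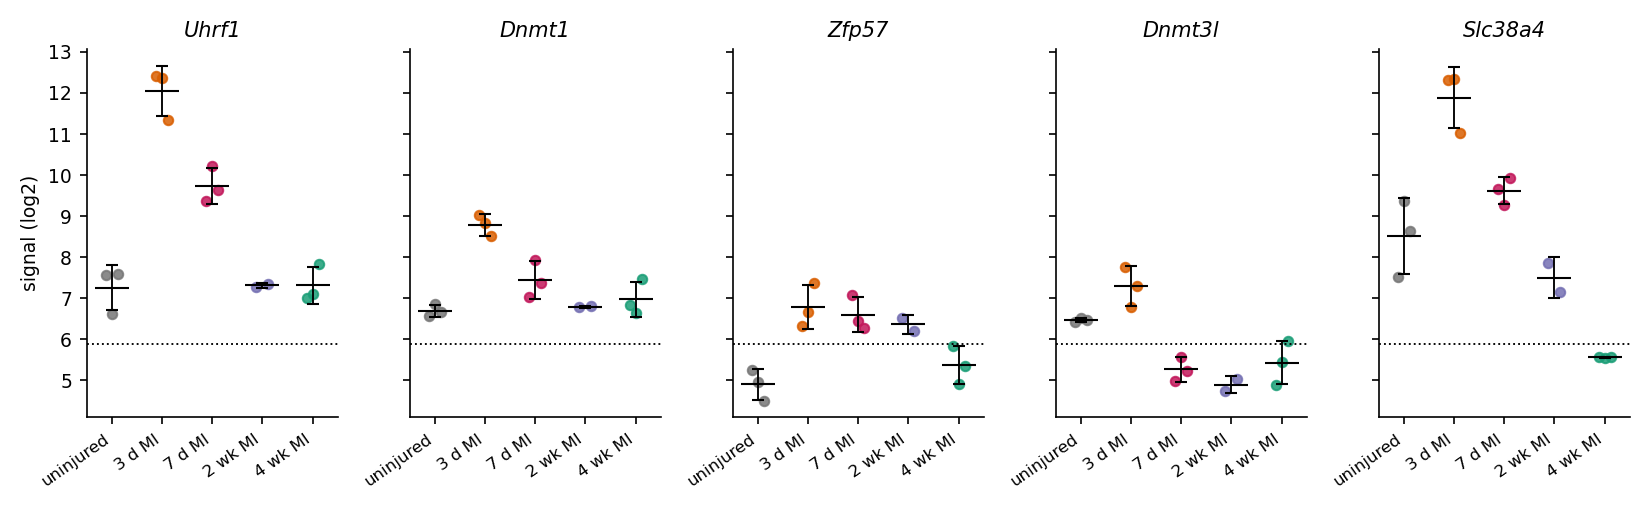
Log2 signal on each array (points) with the group mean and SD (bars) for the imprint maintenance genes Uhrf1, Dnmt1, Zfp57 and Dnmt3l and for Slc38a4, and the background level of 5.89 (dotted line). Uhrf1, Dnmt1 and Slc38a4 are highest at 3 days, and Slc38a4 lies below background on the 3 arrays of 4 weeks.

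Of 6 measured genes for receptors, docking proteins and mRNA binding of the IGF2 pathway, 1 passed at 3 days (16.7%, beside 12.5% of all genes). At the later times 0 passed against uninjured hearts, beside 8.11%, 2.48% and 1.91% of all genes. At those later times 2, 0 and 1 had an unadjusted p under 0.05 by limma. Igf1r, the main receptor, had differences from uninjured hearts of 0.29, 0.31, 0.31 and -0.04 in order of time, with adjusted p of 0.664 and above. Igf2r, itself imprinted, which takes IGF2 to the lysosome, had differences of -0.30, -1.05, -0.04 and -0.67 (0.177 and above). Insr fell 1.51-fold at 3 days (limma adjusted p = 0.0475), and the call ended without any 1 of uninjured arrays 1 to 3 (0.0639, 0.136 and 0.120) or 3-day arrays 2 and 3 (0.167 and 0.127). Irs1, Irs2 and the IGF2 mRNA-binding protein Igf2bp3 did not pass at any time.

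Among proteins known to bind H19 or to process miR-675, Khsrp, a factor that promotes mRNA decay and binds H19 in mouse muscle cells, rose 1.81-fold at 3 days (11.22, 11.13 and 10.90, against 10.11, 10.20 and 10.38 in uninjured hearts, limma adjusted p = 0.00664). Elavl1, the RNA-binding protein HuR, rose 1.98-fold at 3 days (limma adjusted p = 0.0479), a call that ended without any 1 array of either group (0.0578 to 0.168). The microRNA processing enzymes Drosha and Dicer1 had 3-day differences of 0.74 and 0.14 without passing (0.0929 and 0.951). At 7 days 0 of the 7 measured genes passed by limma, beside 8.11% of all genes, and 0 had an unadjusted p under 0.05. Lin28a and Lin28b, which block the maturation of let-7, were below background on all arrays.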

How the data were processed

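EGFP+ cells of the Tcf21 lineage were profiled on 14 arrays in 5 groups. The authors deposited gene-level log2 signals, and their processing notes name Affymetrix Expression Console. Its version, the summarization method and the build are not given in the sources used here, and the methods name Transcriptome Analysis Console for comparisons. Of 28846 rows 6704 are controls. Of the remaining 22142, 19527 have 1 gene symbol, and the row with the highest mean stood for each of 33 genes with several, which left 19494. The values were not normalized again.

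All arrays entered 1 linear model of the 5 groups in limma 3.58.1 under R 4.3.3 (9 residual degrees of freedom), with Benjamini-Hochberg adjustment over all genes at 0.05, and checked on simulated data. The members and gene lists were chosen with earlier results of these data known. Besides the members the text names each measured imprinted gene listed for a member's cluster or chromosome. Of other lists it names genes that passed (at most 4 a list, 12 for imprinted genes elsewhere) or show no change. Of the cell markers it names only some of those that passed. Named too are the 5 genes most correlated with each member whose group means span at least 2 on the log2 scale. Sequences came from RefSeq tables (GRCm38.p6). The main fit used no pairing. A block by array number was an alternative, because same-numbered arrays deviated together in every pair (r = 0.373 to 0.632 for number 1, 0.119 to 0.387 for number 2 and 0.174 to 0.488 for number 3). Deviations were taken from the group means, so a deviation of 1 array forces opposite ones on the rest of its group. Between numbers r was -0.550 to 0.432. Every negative r involved number 1, and arrays numbered 2 deviated together with those numbered 3 as well (r = 0.124 to 0.432). The correlations thus set the arrays numbered 1 apart and do not pair numbers 2 and 3. Only 9 of 14 arrays correlated best with their own number, and the labels name no shared batch. Alternatives were other normalizations, fits and blocks, and leaving out each array. Blocks by the arrays numbered 1 and by 4 arrays low in the Y-linked genes Uty and Kdm5d, and a fit without the arrays numbered 1, were added after seeing the data. The number of arrays limits the precision.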

Additional observations from a re-analysis of the deposited data

Results flagged for a closer look

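For 3 of the imprinted growth genes the arrays of one time after MI all lay above, and those of another time all below, the uninjured arrays. These differences between times were not tested. Mest at 7 days was 4.15 above 3 days and at 4 weeks -4.49 relative to 7 days on the log2 scale. Plagl1 at 4 weeks differed by -4.04 from 3 days, by -2.65 from 7 days and by -2.65 from 2 weeks. Peg3 at 2 weeks was 1.69 above 3 days, with 2 arrays at 2 weeks, both low in Uty and Kdm5d. Slc38a4 rose at 3 days and fell at 4 weeks against uninjured hearts, and here the difference between the times was itself tested (measured -6.33 for 4 weeks minus 3 days, limma adjusted p = 9.59e-07), with all 4-week arrays below background, so that the fold is a bound, at least 64.1-fold lower.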

How the results depend on the processing

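For the log2 differences of the 9 genes at the 4 times, 748 of 756 refits stayed within 1 SD of the replicates, 8 moved and 0 of the called differences changed sign. Many of these refits could not move a difference. Leaving out an array of another group does not change it, nor does a block by array number between groups of 3 arrays, nor the mean of rows for a gene with a single row. The share that stayed is therefore no measure of robustness. Counts of the 9 genes passing, against 3, 1 and 3 at 7 days, 2 weeks and 4 weeks, were 6 and 2 at 7 days and 2 weeks with the replicate block and also with a block of the arrays numbered 1, 2 at 2 weeks without those arrays, 2 and 1 at 2 and 4 weeks in fits of only 2 groups, 1 at 4 weeks with a block of the arrays low in Uty and Kdm5d, 0 at 4 weeks in contrasts without moderation, and 1, 0 and 0 by a t-test of the pair of groups, which the methods keep for comparisons of 2 groups. Counts of other imprinted genes, against 12, 3, 0 and 1 in order of time, were 7, 1 and 2 at the last 3 times with the replicate block, 8, 2 and 2 with the block of the arrays numbered 1, 6, 3 and 2 without those arrays, 0 at 7 days in the fit of only 2 groups, and 1, 0, 0 and 0 by that t-test. Leaving out 1 array gave 3 to 5, 3 to 4, 1 to 2 and 0 to 3 of the 9 genes, and 9 to 12, 0 to 5, 0 to 1 and 1 to 2 of the others, at the 4 times. The replicate block ended no call named in the text. Why the counts differ was not tested. The group of 2 weeks has 2 arrays, and 24 of the 64 other imprinted genes lay below background in every group mean, where differences have no defined size.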
